A study of Mus musculus with 6 samples.

Results

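The serine synthesis and one-carbon enzymes were followed in leukemia stem cells (LSCs) of mice with acute myeloid leukemia (AML). The set was chosen by function and holds 10 genes, all of them among the 55367 genes of the deposited table. Phgdh, Psat1 and Psph make serine. Shmt1 and Mthfd1 form the cytosolic folate arm. Shmt2, Mthfd2, Mthfd2l, Mthfd1l and Aldh1l2 form the mitochondrial folate arm.

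RNA-seq was performed on 3 WT and 3 Piezo1cko libraries of LSCs sorted from bone marrow. Piezo1cko stands for Mx1-cre; Piezo1 fl/fl and WT for Piezo1 fl/fl without the Cre, so the controls also carried the floxed allele, and both genotypes were given pIpC, which induces the Mx1 promoter that drives the Cre in blood-forming and other cells. Lineage-negative marrow cells of each genotype were transduced with an MLL-AF9-YFP retrovirus and transplanted, and the mice were 8 to 10 weeks old and of both sexes in the study. The LSC gate was YFP+ Lin- Sca-1- c-Kit+ CD16/32hi CD34+, and the sorted cells came from irradiated recipients, in which the host's own cells are YFP-negative. The libraries were not stated to come from separate mice, so the p-values measure the spread between these libraries, which may be technical.

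Serine is made from the glycolytic intermediate 3-phosphoglycerate by PHGDH, PSAT1 and PSPH in turn. Serine hydroxymethyltransferase, SHMT2 in mitochondria and SHMT1 in the cytosol, then splits serine into glycine and a carbon unit carried by folate. In mitochondria MTHFD2 or MTHFD2L oxidizes that unit, MTHFD1L releases it as formate and ALDH1L2 burns it to carbon dioxide with the formation of NADPH. MTHFD1 takes the formate up in the cytosol, where the unit serves the synthesis of purines, thymidylate and methionine. The serine synthesis enzymes and several of the mitochondrial enzymes, MTHFD2 among them, are known transcriptional targets of the amino acid response factor ATF4, and MTHFD2 is abundant in many tumours and in proliferating cells.

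The table held log2 values of regularized-log form, which pull genes of low count towards their mean. Undoing that transform returned whole reads, within 0.1, for 93.1% of the values of genes with a mean of 1 to 1000 reads and 61.5% above it. Below, "reads" are these recovered reads, "normalized reads" are reads divided by the size factor of the library, and "deposited values" are the log2 values as given. A gene was called lower or higher at an adjusted p under 0.05 (limma, Benjamini-Hochberg over the 16746 genes tested). Library totals ranged from 14745728 to 15483765 reads in WT and from 14112213 to 15094347 in Piezo1cko LSCs. Piezo1 had 104, 92 and 113 reads in WT and 35, 58 and 45 in Piezo1cko LSCs, 45.9% of the WT level (adjusted p = 5.8e-06, limma). All 11 leukemic progenitor markers had reads, Kit and Cd34, which belong to the gate, among them. Their sum lay between 36446 and 39379 CPM in WT and between 19976 and 21503 CPM in Piezo1cko LSCs, most of it Mpo and Elane. Of the 11 markers, 6 were called lower and 3 higher (limma), with Mpo and Elane lower and Kit, Cd34 and Flt3 higher.

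Of the 10 enzymes, 6 were called lower in Piezo1cko LSCs and 0 were called higher, where 31.4% of all genes tested were called lower and 31.6% higher (limma). At an unadjusted p under 0.05, 1 enzyme (Mthfd1) was higher, and limma-voom on the recovered reads called 0 higher. On recovered reads Mthfd2, Phgdh and Aldh1l2 fell most, Psat1 fell by a smaller amount, and Psph and Shmt2 fell slightly. On the deposited values Psat1 (-0.36) fell by more than Aldh1l2 (-0.30). Shmt1, Mthfd1, Mthfd1l and Mthfd2l did not pass the test. The median change of the 10 deposited values was -0.14 on the log2 scale, beside 0.0 over all genes tested. The 3 libraries of each genotype did not overlap with those of the other for 8 of the 10 enzymes, 7 lower and 1 higher, and 66.6% of all genes tested were separated in this way (33.1% lower, 33.5% higher).

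**Figure D1:**
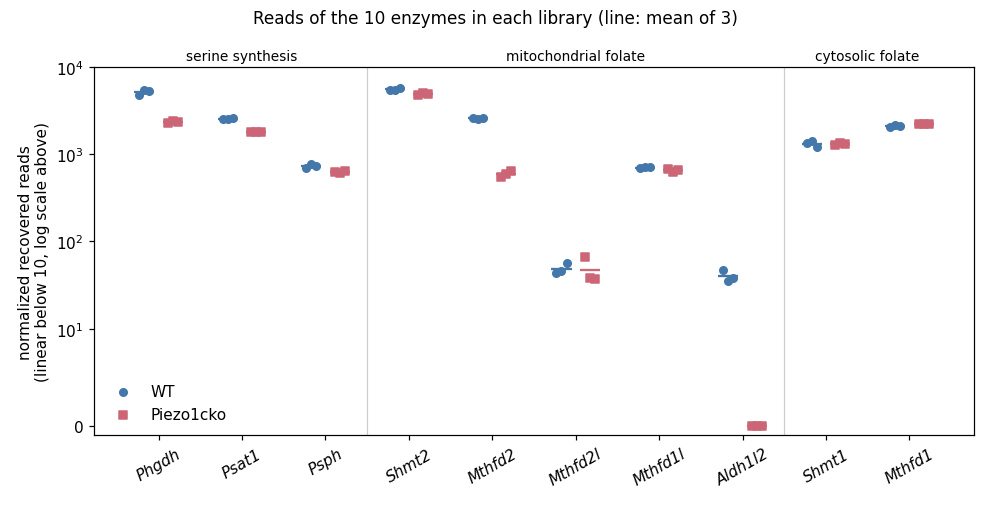
Normalized recovered reads of the 10 enzymes (y axis, linear below 10 and logarithmic above) in each WT library (blue circles) and each Piezo1cko library (red squares), with the mean of 3 libraries as a line. The Piezo1cko libraries lie below all WT libraries for Phgdh, Psat1, Psph, Shmt2, Mthfd2, Mthfd1l and Aldh1l2, with 0 reads for Aldh1l2.

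The promoters of 3 enzymes that fell and of both cytosolic enzymes, which were not called, are shown because ATF4, NRF2, MYC and HIF1A, known regulators of this pathway, bind near the starts of genes. Each is the 150 bases before the RefSeq start, read on the strand of the gene (GRCm38.p6), at chr6:83317605-83317754 for Mthfd2, chr3:98339970-98340119 for Phgdh, chr19:15925060-15925209 for Psat1, chr11:60811266-60811415 for Shmt1 and chr12:76255082-76255231 for Mthfd1. GENCODE places the last 21 bases of the Phgdh window and 2 of the Mthfd2 window in an exon of the gene, and part of the Mthfd1 window in an exon of the opposite-strand noncoding gene Gm47525. Capitals mark CCAAT on either strand (CCAAT or ATTGG) and, in Phgdh, the match to the antioxidant response element on the reverse strand.
Mthfd2: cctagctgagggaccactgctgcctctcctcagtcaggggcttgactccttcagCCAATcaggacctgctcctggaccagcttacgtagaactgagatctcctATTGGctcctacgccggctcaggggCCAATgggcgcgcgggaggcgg
Phgdh: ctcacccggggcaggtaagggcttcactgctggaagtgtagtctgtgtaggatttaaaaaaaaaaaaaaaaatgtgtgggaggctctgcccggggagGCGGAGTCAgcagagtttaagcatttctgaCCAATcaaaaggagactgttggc
Psat1: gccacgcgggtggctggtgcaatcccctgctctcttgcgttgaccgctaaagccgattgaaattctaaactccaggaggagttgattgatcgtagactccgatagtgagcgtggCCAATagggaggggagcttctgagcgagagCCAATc
Shmt1: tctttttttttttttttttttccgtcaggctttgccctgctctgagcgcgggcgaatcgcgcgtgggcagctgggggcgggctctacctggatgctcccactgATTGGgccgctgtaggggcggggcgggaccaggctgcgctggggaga
Mthfd1: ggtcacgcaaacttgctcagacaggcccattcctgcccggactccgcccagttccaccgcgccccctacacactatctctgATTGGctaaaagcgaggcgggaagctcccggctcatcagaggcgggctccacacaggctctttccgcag

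RefSeq promoters, from 250 bases before to 50 after a start, were found for 9 of the 10 enzymes, with 2 for Psat1, which makes 10 windows. Motifs were searched on both strands. The C/EBP-ATF response element TGATGCAA was in 0 of these windows and in 0.895% of all 32851 promoters, and with 1 base free (TGATGNAA) in 0 and 3.97%. The E-box CACGTG was in 0 windows and in 7.15% of all promoters. The antioxidant response element TGACNNNGC was in 2 windows (Phgdh and Psph) and in 12.4% of all. ACGTG, a form of the hypoxia response core that is also part of the E-box, was in 3 windows (Psph, Mthfd1l and Psat1) and in 19.6%. The paper gives GCGTG or GCGTA for the HIF1A sites it studied. That form was not counted here, in the windows or in all promoters. It occurs, on either strand, in the printed Mthfd2, Psat1, Shmt1 and Mthfd1 sequences. The CCAAT box, added after the sequences had been seen, was in 6 windows and in 37.4% of all promoters. Mthfd2 and 1 Psat1 window had 3 matches each, Phgdh and Psph 2 each, and Shmt1 and Mthfd1 1 each. The Shmt2 window had 0, although Shmt2 was called lower, so the number of matches did not follow the fall. These are letters in a window and not sites shown to be bound.

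Phgdh, which commits 3-phosphoglycerate to serine, lies at chr3:98313170-98339990 (GRCm38). It had 4798, 5414 and 5297 normalized reads in WT and 2254, 2369 and 2345 in Piezo1cko LSCs. All 3 Piezo1cko libraries lay far below the lowest WT library, and WT replicate 1 was the lowest of its group. The means were 5170 ± 327 and 2323 ± 60.4 (SD, n = 3), which puts Piezo1cko LSCs at 44.9% of WT (95% interval of the fitted level 42.1 to 48.1%). The deposited value fell by 0.83 (SE 0.03, adjusted p = 6.23e-14, limma), which ranked Phgdh at 151 from the lowest among 16746 genes. Its pseudogene Phgdh-ps1 was listed at 0 in all 6 libraries.

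Psat1, the aminotransferase of the next step (chr19:15904678-15947337), had 2536, 2494 and 2568 normalized reads in WT and 1789, 1787 and 1765 in Piezo1cko LSCs. The libraries of each genotype were close together, and Piezo1cko LSCs held 70.3% of the WT level (95% interval 66.8 to 74.0%, adjusted p = 1.72e-09, limma). Psph, the phosphatase that releases serine (chr5:129765558-129787449), had 697.6, 775.1 and 735.0 normalized reads in WT and 623.7, 613.1 and 631.9 in Piezo1cko LSCs. The groups did not overlap, though the difference was small, with Piezo1cko at 84.6% of WT (95% interval of the fitted level 78.1 to 91.9%, adjusted p = 0.0011, limma). Psph shares 452 exon bases, 10.4% of its exon length, with Cct6a on the opposite strand. The library kit does not mark strand, so reads of this stretch cannot be told apart, and Cct6a itself had 4218 to 4648 reads in WT and 3191 to 3512 in Piezo1cko LSCs.

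The size of the fall followed the order of the steps, from Phgdh to Psat1 to Psph, with 95% intervals that did not overlap. Differences between the 3 falls were not tested directly.

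Shmt2, the mitochondrial serine hydroxymethyltransferase (chr10:127517123-127522444), had the highest mean of normalized reads of the 10 enzymes in both groups, although Phgdh was level with it in WT replicate 2. It had 5476, 5411 and 5667 normalized reads in WT and 4740, 4987 and 4823 in Piezo1cko LSCs. The fall was slight but larger than the spread within either group, with Piezo1cko at 87.9% of WT (95% interval 84.0 to 91.9%, adjusted p = 8.7e-05, limma).

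Mthfd2, the NAD-dependent dehydrogenase and cyclohydrolase of mitochondria (chr6:83305691-83325908), had 2596, 2506 and 2562 normalized reads in WT and 552.6, 591.7 and 633.9 in Piezo1cko LSCs. The highest Piezo1cko library stood far below the lowest WT library. The means of 2554 ± 45.3 and 593 ± 40.7 (SD, n = 3) put Piezo1cko LSCs at 23.2% of WT (95% interval 21.5 to 25.0%). The deposited value fell by 1.43 (SE 0.03, adjusted p = 5.17e-17, limma), and 32 of the 16746 genes fell further. Mthfd2 was the 1 enzyme whose deposited value moved by more than 1 on the log2 scale, a size of fall reached by 0.561% of all genes. In the recovered reads, where low genes are not pulled to their mean, 3 enzymes passed that size (Mthfd2, Phgdh and Aldh1l2), beside 12.2% of all genes.

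Mthfd2l, the paralog of Mthfd2 (chr5:90931117-91021368), was read little. It had 43.66, 45.41 and 56.76 normalized reads in WT and 66.86, 38.02 and 36.63 in Piezo1cko LSCs. The groups overlapped, Piezo1cko replicate 1 being the highest of all 6 libraries. The fitted level was 93.4% of WT with an interval from 66.5 to 131%, so a change within that range was not detectable at this depth.

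Mthfd1l, the formate-releasing synthetase (chr10:3973118-4167081), had 687.0, 701.4 and 711.0 normalized reads in WT and 666.5, 629.7 and 659.4 in Piezo1cko LSCs. The groups did not overlap, but the difference of -0.06 in the deposited values did not pass the test (adjusted p = 0.0996, limma), and the 95% interval of the level was 86.3 to 100% of WT.

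Aldh1l2, the mitochondrial 10-formyltetrahydrofolate dehydrogenase (chr10:83487450-83534140), had 49, 35 and 40 reads in WT and 0 reads in each Piezo1cko library. With a floor of 3 reads per library for a count of 0, the level was at least 13.3-fold lower. The deposited value fell by only 0.30 (SE 0.03, adjusted p = 2.89e-08, limma), since the deposited scale holds back genes of so few reads. Aldh1l2 shares 14.1% of its exon bases with D10Wsu102e on the opposite strand, which had 455 to 515 reads in WT and 387 to 424 in Piezo1cko LSCs. These counts are of the whole gene, and reads of the shared stretch were not counted apart.

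The cytosolic enzymes stayed near their WT level. Shmt1 (chr11:60788104-60811718) had 1355, 1402 and 1202 normalized reads in WT and 1279, 1336 and 1291 in Piezo1cko LSCs. The groups overlapped, WT replicate 3 being the lowest library, and the level was 99.0% of WT with an interval of 91.5 to 107%. Mthfd1, the trifunctional enzyme (chr12:76255298-76319803), had 2052, 2142 and 2090 normalized reads in WT and 2210, 2223 and 2218 in Piezo1cko LSCs. All Piezo1cko libraries lay above all WT libraries, but by little (106% of WT, 95% interval 101 to 112%), and the adjusted p was 0.0692 (limma). With the medians of the libraries set equal, the difference passed the test (0.08 on the log2 scale, adjusted p = 0.0164), as it did on recovered reads scaled by library totals (adjusted p = 0.0215).

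**Figure D2:**
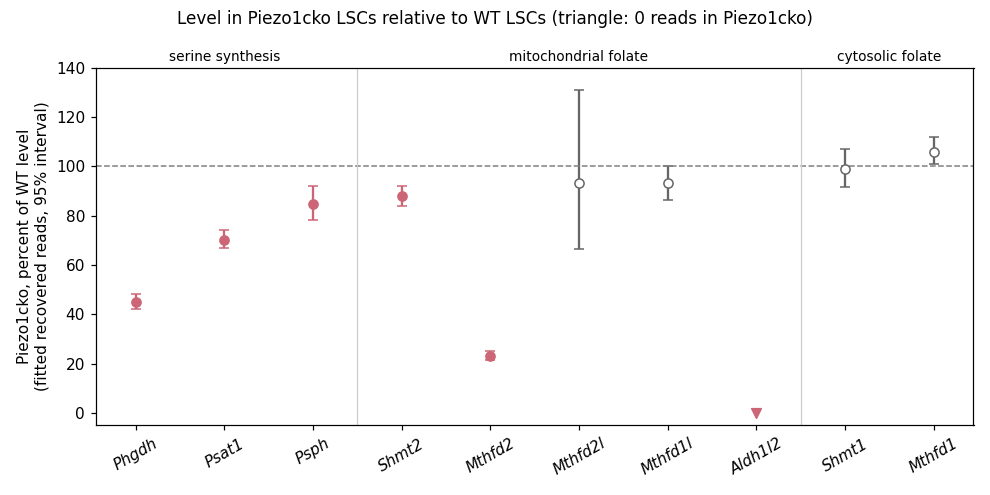
Level of each enzyme in Piezo1cko LSCs as a percent of its WT level (y axis), from recovered reads fitted with limma-voom; bars are 95% intervals, filled points were called lower in the deposited values and open points were not called. Mthfd2 stands at 23.2% and Phgdh at 45.0%, Shmt1 and Mthfd1 lie near the dashed line at 100%, and the triangle marks the 0 reads of Aldh1l2.

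Counterparts between the compartments, and the mitochondrial paralogs Mthfd2 and Mthfd2l, were then set against each other within each library, as the difference of their deposited log2 values. Mthfd2 minus Mthfd1 was 0.02, -0.06 and -0.01 in WT and -1.56, -1.51 and -1.45 in Piezo1cko LSCs, a change of -1.49. Mthfd2 minus Mthfd2l changed by -1.42, from 5.45 ± 0.05 to 4.03 ± 0.15 (SD, n = 3). Shmt2 minus Shmt1 and Mthfd1l minus Mthfd1 each changed by -0.12. In all 4 pairs the first enzyme went down relative to the second, and no pair's groups overlapped. For Shmt2 minus Shmt1 the gap was narrow, with 1.96 in the lowest WT library and 1.92 in the highest Piezo1cko library. The pairs are not independent, since Mthfd2 and Mthfd1 recur among them. The share of all gene pairs that separate in this way was not computed, and 66.6% of single genes did. The exact two-sided permutation test gave p = 0.1 for each pair, adjusted p = 0.1 over the 4, which is the smallest value that 3 libraries against 3 allow, so the threshold of 0.05 could not be reached.

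To compare levels between enzymes, normalized reads were divided by exon length, counted over all annotated exons of a gene. The transcripts present may be shorter, so the order depends on this choice. Before the division, Shmt2 (5518) stood above Phgdh (5170) in WT. Per kilobase of exon, WT LSCs held most Phgdh (2080 ± 132, SD, n = 3), followed by Shmt2 (1775 ± 42.7), Mthfd2 (733 ± 13.0), Psat1 (595 ± 8.74), Mthfd1 (472 ± 10.2), Shmt1 (340 ± 26.9), Psph (170 ± 8.94), Mthfd1l (158 ± 2.72), Mthfd2l (7.32 ± 1.07) and Aldh1l2 (5.39 ± 0.846). No neighbours in this order overlapped between libraries. In Piezo1cko LSCs Shmt2 came first (1560 ± 40.4) and Phgdh second (934 ± 24.3), and Mthfd2 moved from the third to the sixth place (170 ± 11.7), behind Mthfd1, Psat1 and Shmt1. Mthfd1l (147 ± 4.40) and Psph (144 ± 2.17) overlapped there.

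Summed per kilobase, the serine synthesis enzymes reached 52.6% of their WT level, the mitochondrial arm 70.4% and the cytosolic arm 103%. The sums of the first and the second did not overlap between genotypes, and those of the third did (780 to 843 in WT, 827 to 845 in Piezo1cko LSCs). Shmt2 made up 83.9% of the summed Shmt1 and Shmt2 level in WT and 82.3% in Piezo1cko LSCs. Mthfd2 made up 99.0% of the summed Mthfd2 and Mthfd2l level in WT and still 95.9% in Piezo1cko LSCs, where it had fallen to 170 reads per kilobase against 7.10 of Mthfd2l.

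**Figure D3:**
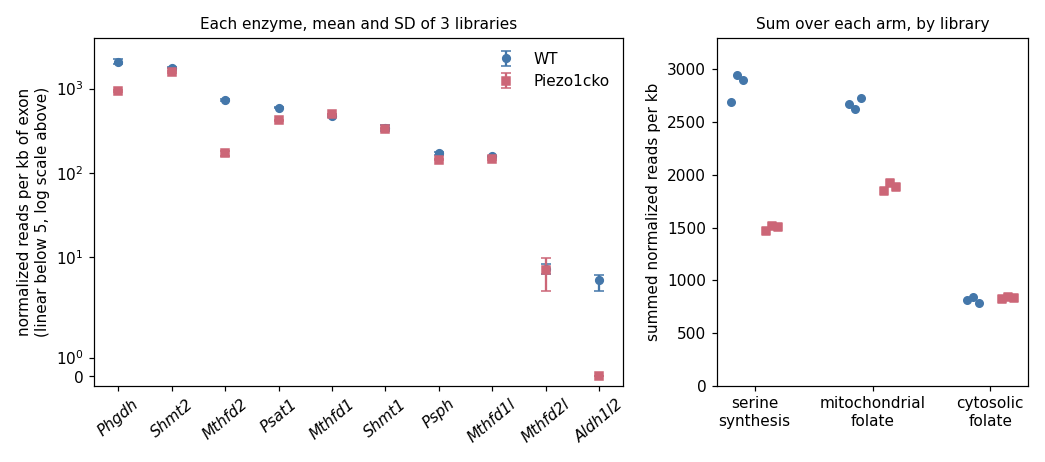
Left, normalized reads per kilobase of exon of each enzyme (linear below 5, logarithmic above; mean and SD of 3 libraries), ordered by the WT level. Right, the sum over the enzymes of each arm in each library (linear axis from 0; WT blue circles, Piezo1cko red squares): serine synthesis reached 52.6% of WT, the mitochondrial arm 70.4% and the cytosolic arm 103%.

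The rest of the pathway, its regulators and proliferation markers were read from 9 lists written by function. They held 93 distinct genes that could be tested, of which 53 were lower, 16 higher and 24 not called. These shares stand beside 31.4% and 31.6% over all genes. They include 17 regulators (13 lower, 1 higher) and 14 proliferation markers (11 lower, 0 higher), which lean down more than the metabolic lists. The pooled share is therefore not that of the metabolic genes alone.

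Of 10 transporters of serine and glycine, 5 were lower and 2 higher. Slc1a4 (ASCT1), a neutral amino acid exchanger that carries serine, had 176, 183 and 192 reads in WT and 8, 4 and 8 in Piezo1cko LSCs, 3.78% of the WT level. Slc1a5 (ASCT2) fell to 55.7% and Slc38a2 (SNAT2) to 74.6% of WT. Slc6a9, the glycine transporter GlyT1, had 69, 47 and 52 reads in WT and 0, 1 and 0 in Piezo1cko LSCs. Sfxn1, which brings serine into mitochondria, fell to 88.9% of WT.

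Of 10 genes that use or break down serine, 5 were lower and 2 higher. Cbs and Cth, the transsulfuration enzymes that turn homocysteine and serine into cysteine, had 17 to 35 and 45 to 48 reads in WT and 0 in all Piezo1cko libraries, at least 8.33-fold and 15.1-fold lower at the same floor. Sars, the cytosolic seryl-tRNA synthetase, fell to 52.0% and its mitochondrial counterpart Sars2 to 71.7% of WT.

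Among 11 genes of glycine cleavage and use, 6 were lower and 2 higher. Alas1, which joins glycine to succinyl-CoA in the first step of haem synthesis, fell to 57.9% of WT, Gatm, of creatine synthesis, to 74.2%, and Gcsh, of the glycine cleavage system, to 88.3%. Amt, the aminomethyltransferase of the same system, rose to 189% of WT, from 108 to 205 normalized reads. Gldc, its decarboxylase, had 5, 5 and 2 reads in WT and 1, 0 and 2 in Piezo1cko LSCs, at or near the floor. Gldc is counted among the 6 lower (adjusted p = 0.0499, limma), although its groups overlapped. So are Pipox (8, 8 and 10 reads in WT, 0 in each Piezo1cko library) and Glyctk (20, 12 and 8 against 1, 0 and 0), which also had few reads.

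Folate transport and storage was the list with more genes higher than lower, 4 against 1 of 8 tested. Folr1, a folate receptor, had 9, 4 and 6 reads in WT and 36, 39 and 49 in Piezo1cko LSCs, and the proton-coupled transporter Slc46a1 rose to 132% of WT. Ggh was called higher in the deposited values (adjusted p = 0.0384, limma), but its groups overlapped and it was not called on recovered reads (116% of WT, adjusted p = 0.0529, limma-voom), which left 3 higher in this list. The reduced folate carrier Slc19a1 fell to 70.8%. The mitochondrial folate transporter Slc25a32 (94.5% of WT, adjusted p = 0.421, limma) did not pass the test.

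Of 10 folate-using genes, 5 were lower and 4 higher. Mtrr, which reactivates methionine synthase, fell to 79.3% of WT. Aldh1l1, the cytosolic counterpart of Aldh1l2, had 44, 45 and 30 reads in WT and 8, 10 and 9 in Piezo1cko LSCs, 23.3% of WT. Tyms, the thymidylate synthase, was slightly higher (106% of WT, adjusted p = 0.0329, limma). In the list for the methionine cycle 4 of 8 were lower and 1 higher. Mtr, the methionine synthase, was at 84.3%, Ahcy at 89.0% and Mat2b at 112% of WT. The other 2 lower genes were the Ahcy-like Ahcyl2 (50.2%) and Ahcyl1 (87.0%), so the largest fall was not that of Ahcy itself.

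Upstream, around 3-phosphoglycerate, 4 of 7 genes were lower and 1 higher. Eno1 was at 79.0%, Minpp1 at 81.4%, Pgk1 at 86.3% and Bpgm at 136% of WT, so the glycolytic steps moved by less than Phgdh in these values.

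Of 17 regulators, 13 were lower and 1 higher. Atf4, the transcription factor of the amino acid response, fell to 62.4% of WT, with 1165, 1073 and 1218 reads against 668, 722 and 697. Ddit3 (CHOP), a gene that ATF4 induces, fell to 27.4%, Nfe2l2 (NRF2), the antioxidant factor, to 55.5%, and Hif1a to 40.5% of WT. Cebpb, which pairs with ATF4 on DNA, had 977, 933 and 1000 reads in WT and 31, 36 and 35 in Piezo1cko LSCs, 3.62% of WT.

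**Figure D4:**
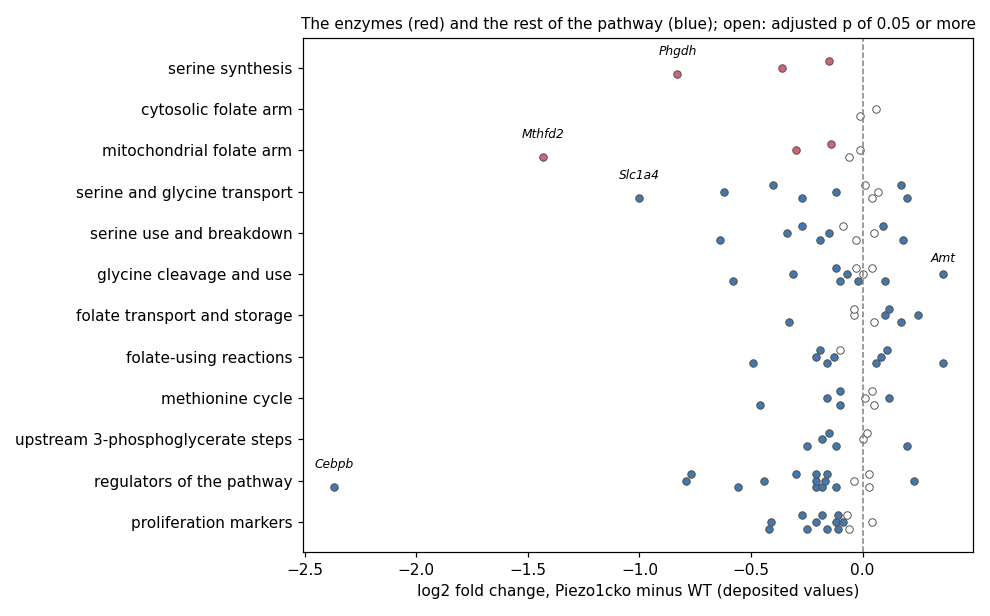
Change of the deposited log2 values (x axis, Piezo1cko minus WT) of each tested gene of the 10 enzymes (red) and of the other lists (blue), 1 row per arm or list; filled points had an adjusted p under 0.05 and open points did not. Mthfd2 (-1.43) and Phgdh (-0.83) lie to the left of most genes of the metabolic lists, and Cebpb (-2.37) to the left of all others.

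Proliferation genes also moved, 11 of 14 lower and 0 higher (limma; also 0 at an unadjusted p under 0.05 and 0 with limma-voom on the recovered reads), with Top2a at 67.1%, Rrm2 at 68.2%, Mcm5 at 77.1% and Cdk1 at 77.2% of WT. Mki67 was at 93.6% and was not called. The part of this change in the falls of the enzymes was not tested.

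Markers of other cells in or near the gate were also compared as summed CPM. Neutrophil markers were at 169 in all WT libraries and at 61.8 to 64.8 in Piezo1cko LSCs, with 5 of 7 tested lower and 1 higher. Within that list Ngp went from 83.5 to 87.9 CPM to 8.61 to 10.3 CPM, while Mmp8 went the other way, from 2.53 to 3.16 CPM to 42.3 to 44.1 CPM, and made up most of the Piezo1cko sum. The T and NK cell list summed to 268 to 281 and 169 to 172, nearly all of it the 1 gene Nkg7. Its other genes were near or at 0, and of the 4 tested 2 were lower and 2 higher, with Klrb1c at 0 in WT and at 2.27 to 3.60 CPM in Piezo1cko LSCs. Erythroid markers were at 7.40 to 8.21 and 2.14 to 2.98, most of it Klf1. B cell markers were at 818 to 846 and 1520 to 1543, most of it Ighm. Macrophage and dendritic cell markers were at 326 to 339 and 463 to 473, most of it Cd68 and Flt3, and mast cell and basophil markers at 282 to 297 and 827 to 834. The stromal and endothelial list summed to 194 to 198 and 234 to 250, nearly all of it the 1 gene Pecam1, with Cdh5, Kdr and Lepr at or near 0. Cd8a, C1qa and Col1a2 had 0 reads in all libraries. In bulk libraries fewer cells of a type and less RNA per cell cannot be told apart, and the part of these shifts in the changes of the enzymes was not tested.

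The genes whose 6 deposited values, centred on their mean, lay nearest to Mthfd2 were Camp (distance 0.074), Epx (0.111) and Pim1 (0.118). Nearest to Phgdh were Caap1, Krtcap3 and Itga5, to Psat1 Dnajb11, Tex14 and Cyb5b, and to Shmt2 Klhl21, Gm10767 and Rinl. The deposited scale holds back genes of few reads, so a small distance need not mean an equal fall. On recovered reads Caap1 (21.9% of WT) and Krtcap3 (8.59%) fell further than Phgdh (44.9%). Tex14 (24.9%) fell further than Psat1 (70.3%), and Gm10767 (22.5%) further than Shmt2 (87.9%). Itga5 (45.8%), Dnajb11 (71.1%), Cyb5b (70.5%), Klhl21 (85.9%) and Rinl (85.6%) were close to their enzyme. Camp and Epx encode granule proteins of neutrophils and eosinophils, and Pim1 a kinase.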

How the data were processed

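Sorted LSCs of 3 WT and 3 Piezo1cko samples were profiled by RNA-seq (Smart-seq2 type libraries, paired-end). The authors trimmed reads with fastp (0.20.1), mapped them to GRCm38 with HISAT2 (2.2.1), counted them with featureCounts (2.0.1) and normalized them with DESeq2 (1.28.1). The deposited values are log2 values of regularized-log form, a transform the sources used here do not name. Of 55367 genes, 28965 were at 0 in all libraries. Since these are log values, no count model was used on the deposited values themselves.

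Genes with a mean deposited value of at least 1 (16746) were fitted with limma (3.58.1, R 4.3.3; trend in the variance, no covariates, two-sided, Benjamini-Hochberg). Size factors and shrinkage were solved so that values returned whole reads, and these were fitted with limma-voom (17352 genes with at least 10 reads in total). On simulated reads 100.0% came back exactly (14675 genes with means of 1 to 1000). Whether the reads recovered from the deposited values equal the original counts was not tested. After the transform was undone, 93.1% of the values were whole, within 0.1, at means of 1 to 1000 reads and 61.5% above. Under a mean of 1 read, 24.2% were whole. At means of at least 1 read the share was 87.3%, and 23.1% with the shrinkage set 10% off. The 24.2% is therefore near the share of a wrong setting. Exon lengths are from GENCODE M21 and promoters from RefSeq. The 10 genes are all named; from each other list, up to 4 called genes with the largest change and those next to a member's step were named. Some genes that this rule names are not reported here. The members and lists were chosen with earlier results of these data known. Alternatives were the filter, scaling, trend, replicate block, recovered reads, a fold threshold and leaving out each library. Replicates differed by more than sampling noise (chi-square per gene 1.60 to 3.20), so none was a duplicate.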

Additional observations from a re-analysis of the deposited data

How the results depend on the processing

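With an absolute log2 fold change over 1 added to the threshold, 137 genes of all those tested, 1 of the 10 enzymes and 2 genes of the 9 lists passed, against 10556, 6 and 69 without it. On recovered reads with the same fold threshold, an alternative chosen after seeing the data, 4322, 3 and 15 passed. The deposited values are shrunken by construction. Leaving out 1 library at a time gave 9596 to 10121 genes in all, 6 enzymes each time and 61 to 68 list genes, and moved Mthfd2 between -1.46 and -1.40 and Phgdh between -0.87 and -0.80. The changes within pairs ranged from -1.52 to -1.46 for Mthfd2 minus Mthfd1, -1.48 to -1.33 for Mthfd2 minus Mthfd2l, -0.16 to -0.07 for Shmt2 minus Shmt1 and -0.13 to -0.10 for Mthfd1l minus Mthfd1. With library medians set equal, 4214 genes were lower and 6450 higher, against 5258 and 5298. Setting a mean of at least 5 removed Aldh1l2 from the test. Without the trend, Mthfd1 was called higher (adjusted p = 0.0328) and Mthfd1l lower (adjusted p = 0.0345). No enzyme changed direction past the threshold in any alternative run. The replicate block gave 11055 genes, 7 enzymes (Mthfd1 higher, adjusted p = 0.0338) and 71 list genes; same-numbered libraries had correlated deviations (r = 0.195, 0.161 and 0.070), each WT library correlating best with its own number, but not all above 0.1, so the numbers were not taken to pair the libraries. At 36 to 64 reads per library, only large changes of Mthfd2l were detectable.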
